A study of Mus musculus with 12 samples.

Results

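Collagen chain genes were described across 3 groups of mouse left ventricle libraries. The members were all genes whose mouse symbol reads Col, a number, the letter a and a number, and 44 such genes stood among the 38293 genes of the count table. Healthy C57BL/6J mice had their chest opened and received 2 intramyocardial injections of 10 µl each, and the ventricle was taken at day 3. The PBS group (4 libraries) received saline alone. The Upy-PEG group (4 libraries) received a hydrogel of poly(ethylene glycol) carrying ureidopyrimidinone units, which join reversibly into a gel. The antimiR-195 group (4 libraries) received the same hydrogel loaded with an antisense oligonucleotide against the microRNA miR-195. All 3 groups share the surgery and the puncture of the muscle, and no hydrogel with a control oligonucleotide and no uninjected heart was analysed here. The labels do not say whether the 4 samples of a group are 4 animals, so each p-value measures the spread between these samples only. Replicates are numbered here in accession order, and a number shared by groups links no samples.

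Collagens are extracellular proteins in which 3 chains wind into a triple helix. Fibrillar collagens, chiefly types I and III in the heart, are made by fibroblasts and form the fibres that hold muscle bundles together. Type IV collagen forms the sheet-like network of basement membranes around cardiomyocytes and capillaries, type VI collagen forms beaded filaments next to that membrane, and FACIT collagens sit on the surface of fibrils. Fibroblasts of injured heart muscle are known to turn into matrix-secreting myofibroblasts in the days after injury, and collagen messenger RNA is a usual readout of that state.

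Because the oligonucleotide is aimed at miR-195, the seed of that microRNA was looked up in the 3′ untranslated regions of the members, together with the seed of the miR-29 family, which is a known repressor of collagen messages. The mature sequences below are from RefSeq (GRCm38.p6), 5′ to 3′, with the seed (bases 2 to 8) in capitals. The first pair share one seed and the last 3 share another.
mmu-miR-195a-5p: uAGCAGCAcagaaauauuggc
mmu-miR-497a-5p: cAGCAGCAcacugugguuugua
mmu-miR-29a-3p: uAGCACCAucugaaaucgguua
mmu-miR-29b-3p: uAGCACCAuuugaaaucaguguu
mmu-miR-29c-3p: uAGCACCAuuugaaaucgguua
A match was the run TGCTGCT for miR-195 or TGGTGCT for miR-29 on the transcribed strand, searched once per gene in its longest 3′ untranslated region (GENCODE, GRCm38). A miR-29 match was found in 23 of the 36 tested members (63.9%), against 2123 of 13317 genes searched (15.9%), and 27.8% of members held 2 or more matches, against 2.56% of genes. A miR-195 match was found in 9 of 36 members (25%), against 24.8% of genes. The median length of the searched region was 1296 bases for members and 1192 bases for all genes. A match is a run of letters and was not tested as a binding site.

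The windows below show matches in members that the results turn on, as 30 bases of the transcribed strand with the match in capitals, and with a following A in capitals where it completes an 8-base match.
Col1a1 miR-29: gaaggaatttcTGGTGCTAtagaagctgag
Col3a1 miR-29: aaatgtctcaaTGGTGCTAtaataaataaa
Col5a1 miR-29: cttgtctcttgTGGTGCTAtgtgtccggag
Col5a2 miR-29: tcttttaatgaTGGTGCTAaaattatttct
Col4a1 miR-29: ccgtcacaacaTGGTGCTActcccccccct
Col6a2 miR-29: acaaatgggggTGGTGCTAtttgaacgctt
Col8a1 miR-29: atattctaccaTGGTGCTAatatcagagct
Col1a1 miR-195: ccctcccctctTGCTGCTgctccctcccct
Col5a1 miR-195: aattgaacaaaTGCTGCTgaaaatacacac
Col12a1 miR-195: taagtctccagTGCTGCTtacagtttgaaa
The 7-base miR-29 match lies at chr11:94952538-94952544 in Col1a1, chr1:45348982-45348988 in Col3a1, chr2:28038034-28038040 in Col5a1, chr1:45374966-45374972 in Col5a2, chr8:11199762-11199768 in Col4a1, chr10:76598751-76598757 in Col6a2 and chr16:57624706-57624712 in Col8a1. The miR-195 match lies at chr11:94952840-94952846 in Col1a1, where a second match overlaps it, at chr2:28039277-28039283 in Col5a1 and at chr9:79601142-79601148 in Col12a1, which holds 1 more. The Col1a1 miR-195 matches fall in a run of repeated triplets. Col5a1 held 4 miR-29 matches, and Col1a2, Col14a1, Col18a1, Col6a1 and Col8a2 were among those with no match of either kind.

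Libraries held between 22353241 and 30278621 gene counts, with 18668 to 19740 genes detected. edgeR's filterByExpr, which drops genes with too few reads for a test, left 14770 genes and 36 of the 44 members. Col2a1, Col10a1, Col17a1, Col19a1, Col6a4, Col6a5, Col9a1 and Col9a2 were not tested. Their totals over all 12 libraries lay between 0 (Col10a1) and 79 counts (Col9a2). The mitochondrial share of counts was 12.3% in PBS replicate 1 and 14.8% in antimiR-195 replicate 2, and between 16.6% and 21.7% in the other 10. Replicates 2 and 3 of the antimiR-195 group also stood apart in how strongly log2 CPM (counts scaled to a common library size) increased per doubling of gene length, by 0.332 and 0.426, against 0.52 to 0.683 in the other libraries. Cardiomyocyte markers, a check for heart muscle that does not tell ventricle from atrium, summed to 66010 to 101609 CPM.

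Collagen chains took a larger share of all counts in the Upy-PEG group on average, with a wide spread. The share was 0.392%, 0.377%, 0.471% and 0.554% in PBS replicates 1 to 4. In Upy-PEG replicates 1 to 4 it was 1.18%, 0.864%, 0.48% and 0.616%. In the antimiR-195 group it was 0.316%, 0.484%, 0.327% and 0.45%. Upy-PEG replicates 1 and 2 lay far above every other library, replicate 4 lay above all PBS and antimiR-195 libraries, and replicate 3 lay inside the PBS range. The group values were 0.449% ± 0.0813 for PBS, 0.784% ± 0.306 for Upy-PEG and 0.394% ± 0.0853 for antimiR-195 (SD, n = 4 each). They are given as a description, with no test over the members.

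**Figure D1:**
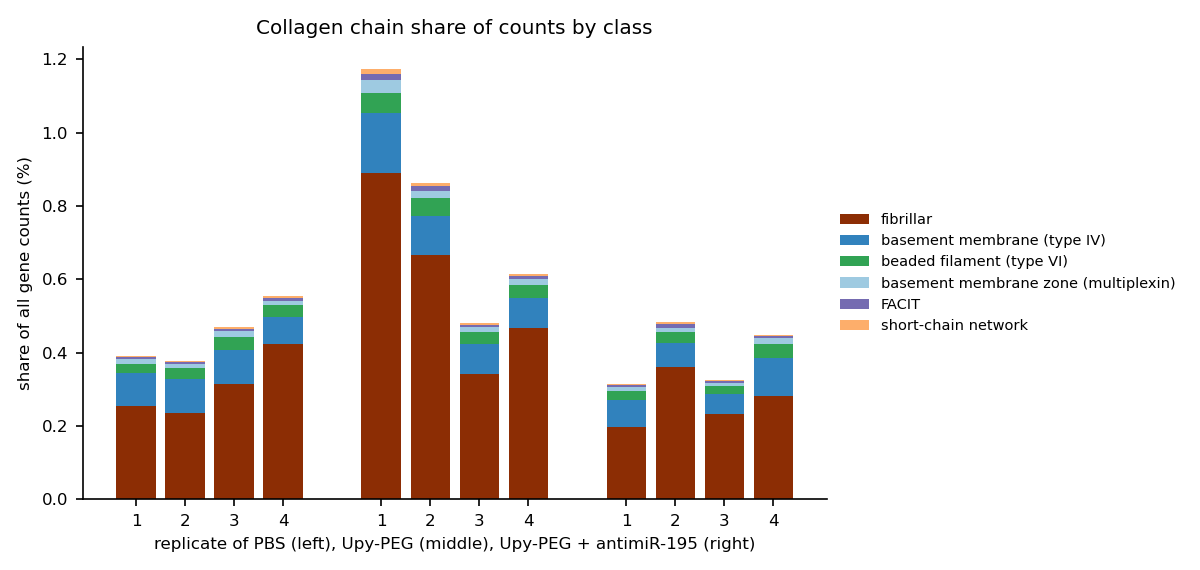
Stacked bars give the share of all gene counts (%, y axis) taken by 6 collagen classes in each of the 12 libraries (x axis). The fibrillar class makes up most of every bar, and the tallest bars are Upy-PEG replicates 1 and 2 (1.18% and 0.864% for all classes).

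Fibrillar chains made up 67.4% ± 6.23 of collagen counts in PBS, 74.7% ± 2.79 in Upy-PEG and 67.5% ± 5.95 in antimiR-195. Type IV chains took 20.3% ± 5.0, 14.3% ± 2.06 and 19.3% ± 4.5 in the same order. Their ranges overlapped, at 13.4% to 24.9% in PBS and 12.2% to 17.1% in Upy-PEG. As a share of all gene counts, type IV chains took 0.0881% ± 0.00941, 0.109% ± 0.0388 and 0.0748% ± 0.0199, so their smaller part of collagen counts in Upy-PEG was not a smaller share of all counts. The fibrillar ranges overlapped, at 62.1% to 76.4% in PBS and 70.7% to 77.1% in Upy-PEG. Type VI chains took 6.85% ± 0.849, 5.76% ± 0.972 and 7.16% ± 1.31, multiplexins between 2.58% and 3.12%, and FACIT chains between 1.43% and 1.61% of collagen counts on average. Col3a1, the chain of type III collagen, was the largest single contributor, with 27.3% ± 4.39 of collagen counts in PBS.

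Levels between genes were compared as CPM per kilobase of the gene length behind the authors' RPKM values. Col3a1 stood at 150 ± 49.1 CPM per kilobase in PBS, 245 ± 64.5 in Upy-PEG and 138 ± 34.6 in antimiR-195 (SD, n = 4 each). Col1a1, the main chain of type I collagen, stood at 135 ± 32.2, 258 ± 108 and 110 ± 25.9. The means of these 2 genes differed by less than the larger of their SDs in each group. That rule ignores that both were measured in the same libraries, where the ratio of Col3a1 to Col1a1 was 1.19 to 1.3 in antimiR-195. It was 0.917 to 1.28 in PBS and 0.791 to 1.24 in Upy-PEG. On their longest coding transcripts the means over 12 libraries were 268 for Col3a1 and 186 for Col1a1, in place of 178 and 168. The type IV chains Col4a1 (69.2 ± 8.27, 82.4 ± 25.8 and 61.9 ± 14.5) and Col4a2 (55.7 ± 7.27, 61.1 ± 17.1 and 46.9 ± 10.1) followed, together with Col1a2, the second chain of type I, at 53.2 ± 14.2, 97.9 ± 40.8 and 49.5 ± 12.9. The length behind Col1a2 is 12136 bases while its longest coding transcript has 5348, so its level per kilobase depends on the length used: its mean over 12 libraries was 66.9 with the first and 152 with the second, which places it above Col4a1 (73.3 on that length). Col6a1, Col5a1, Col15a1, Col6a2, Col5a2 and Col8a1 lay between 29.5 and 10.9 CPM per kilobase over all libraries, and 19 of the tested members lay below 1. Col6a2, of the range from 29.5 to 10.9, stood at 15.6 with the deposited length and at 27.9 with its longest coding transcript. In the order of the 36 genes by deposited length, 15 of the 35 neighbouring pairs differed by less than the larger of their SDs in all 3 groups, and 5 differed by more in all 3 (Col1a1 over Col4a1, Col4a2 over Col6a1, Col14a1 over Col16a1, Col18a1 over Col27a1, and Col26a1 over Col22a1).

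**Figure D2:**
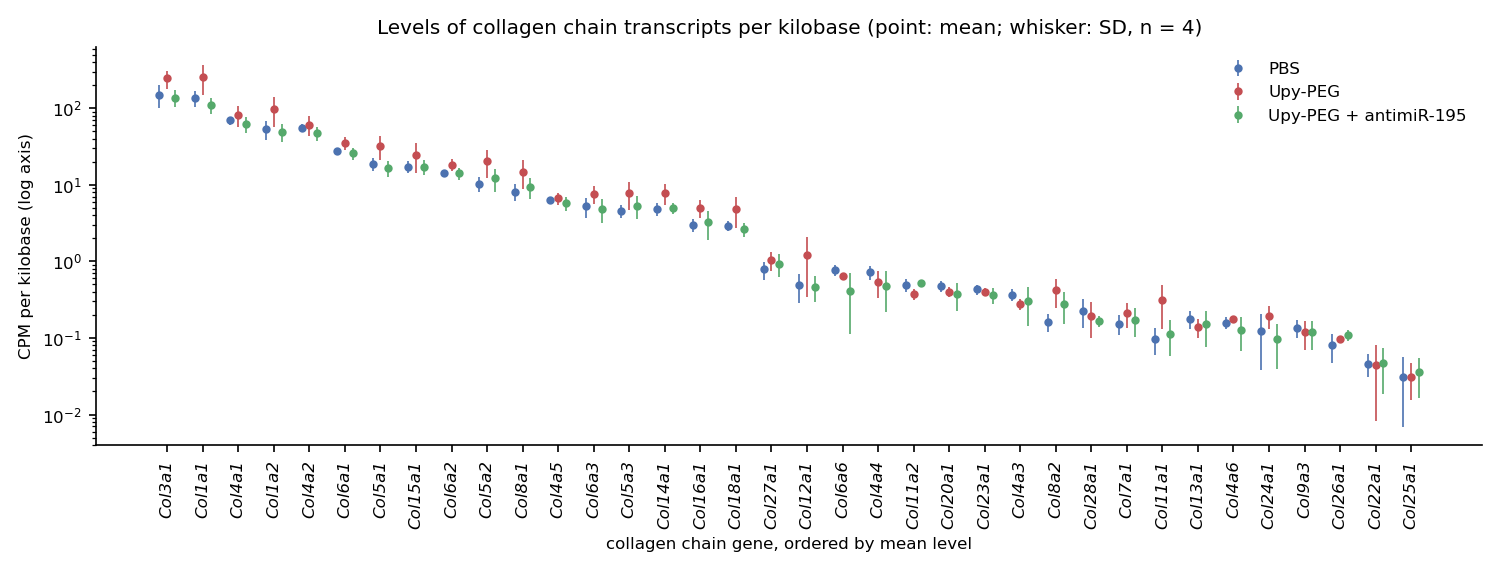
Points give the mean CPM per kilobase (log axis) of each tested collagen chain in the 3 groups, and whiskers the SD (n = 4). Genes run from the highest mean over all libraries (Col3a1) to the lowest (Col25a1), a span of more than 3 orders of magnitude.

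The hydrogel was first compared with saline, which asks what the material itself does to the muscle. In edgeR's quasi-likelihood test no gene of the 14770 passed an adjusted p of 0.05, so no collagen chain is called higher or lower here (0.0% called). At an unadjusted p under 0.05, 15 of the 36 members (41.7%) were higher in Upy-PEG, against 9.33% of all genes, and 0 were lower, against 3.83%. The median log2 fold change of members was 0.39, a fold of 1.31, against -0.03 for all genes, and 25 of 36 lay above 0, against 44.7% of genes. By class the median log2 fold change was 0.78 for 10 fibrillar chains, 1.12 for the 2 short-chain network members, 0.62 for the 2 multiplexins, 0.38 for 4 type VI chains, 0.29 for 6 FACIT chains, 0.11 for 6 type IV chains and -0.1 for 3 transmembrane collagens. The lowest adjusted p among members was 0.114 (Col8a2), and 155 genes of the whole table had an adjusted p under 0.10, the lowest being 0.0809, with 0 collagen chains among them.

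The count of calls depended on the test. With the same threshold DESeq2 called 505 genes and 5 members (Col11a1, Col1a1, Col5a1, Col5a2 and Col8a2), and limma voom with sample weights called 918 genes and 4 members (Col16a1, Col5a1, Col5a2 and Col8a2), all with positive fold changes. The length-slope covariate gave 332 genes and limma-trend on log2 RPKM gave 0, both with 0 members. Without antimiR-195 replicates 2 and 3 the edgeR fit called 349 genes and 1 member, Col8a2.

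Type I and III collagen, the bulk of the fibrous matrix, carried most of the collagen reads. Col1a1 was at 692, 736, 974 and 1144 CPM in PBS, at 2590, 1850, 919 and 1417 in Upy-PEG, and at 560, 950, 636 and 752 in antimiR-195. Its highest values were Upy-PEG replicates 1, 2 and 4, while replicate 3 lay below 2 PBS libraries. The log2 fold change of Upy-PEG over PBS was 0.93 ± 0.276 (SE; adjusted p = 0.144), which became 0.66 without Upy-PEG replicate 1 and 1.15 without replicate 3. Col3a1 was at 1056, 962, 1140 and 1862 CPM in PBS, at 2616, 2389, 1451 and 1766 in Upy-PEG, and at 868, 1556, 1060 and 1143 in antimiR-195. PBS replicate 4 lay above Upy-PEG replicates 3 and 4, so the groups overlapped, and the log2 fold change was 0.71 ± 0.245 (SE; adjusted p = 0.21). Col1a2, described because it forms the type I trimer with Col1a1, was at 513, 510, 688 and 871 CPM in PBS and at 1786, 1367, 653 and 946 in Upy-PEG. Upy-PEG replicate 3 lay inside the PBS range and the other 3 above it, with a log2 fold change of 0.88 ± 0.285 (SE; adjusted p = 0.181).

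Type V and XI chains nucleate fibrils and set their thickness. Col5a1 was at 121, 146, 175 and 192 CPM in PBS, at 404, 297, 178 and 223 in Upy-PEG, and at 116, 182, 112 and 147 in antimiR-195. Col5a2 was at 87.5, 75.4, 111 and 124 CPM in PBS, at 298, 222, 116 and 156 in Upy-PEG, and at 85.1, 173, 102 and 105 in antimiR-195. For both genes only Upy-PEG replicate 3 fell within the PBS range. The log2 fold changes of Upy-PEG over PBS were 0.80 ± 0.238 for Col5a1 (SE; adjusted p = 0.149) and 0.99 ± 0.28 for Col5a2 (SE; adjusted p = 0.13). Col11a1, which co-assembles with type V chains, was rare, at 0.424, 1.02, 1.04 and 1.27 CPM in PBS, at 4.13, 4.96, 1.39 and 1.66 in Upy-PEG, and at 0.65, 1.85, 0.782 and 1.12 in antimiR-195. Its PBS and Upy-PEG libraries did not overlap, and its log2 fold change of 1.71 ± 0.46 (SE; adjusted p = 0.117) was the highest of the 36 members. Members whose Upy-PEG libraries all lay above all PBS libraries numbered 3 of 36 (8.33%: Col11a1, Col6a1 and Col6a2), against 5.91% of all genes, a share near the background. The reverse order held for 0 members, against 3.77% of genes.

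**Figure D3:**
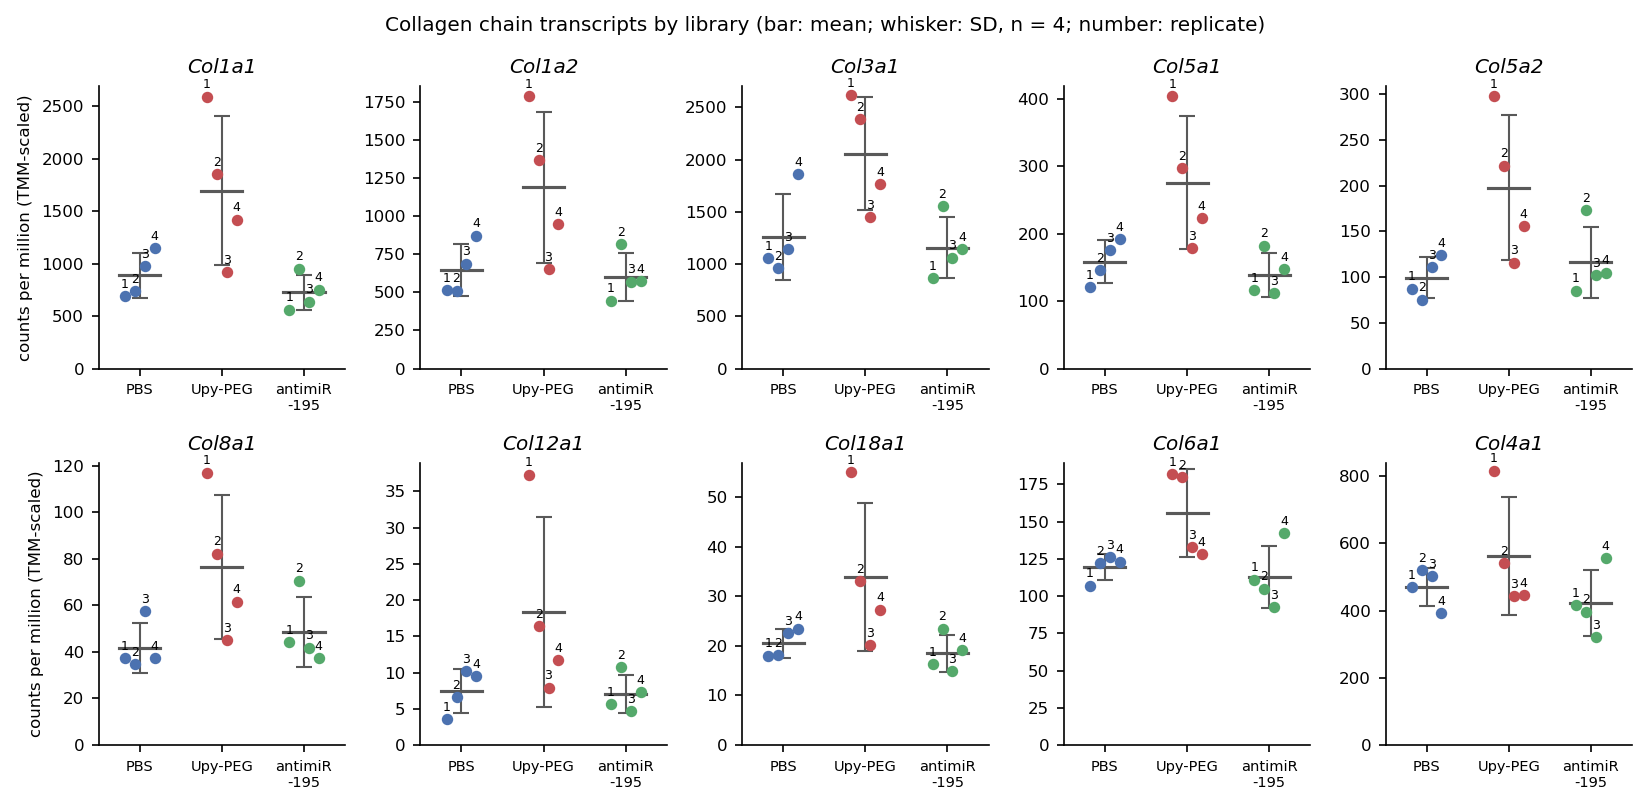
Dots give TMM-scaled CPM (linear axes from 0) of 10 collagen chains in each library, numbered by replicate, with bars for the group mean and whiskers for the SD (n = 4). Upy-PEG replicates 1 and 2 lie highest in most panels, and Upy-PEG replicate 3 lies near the PBS libraries, as for Col1a1 (919 CPM against 692 to 1144).

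Type VIII collagen, a short-chain network former of vessel walls, was the other group with large differences. Col8a1 was at 37.4, 34.7, 57.5 and 37.2 CPM in PBS, at 117, 82.1, 44.9 and 61.5 in Upy-PEG, and at 44.3, 70.6, 41.8 and 37.2 in antimiR-195. Col8a2 was at 0.977, 0.679, 0.541 and 0.717 CPM in PBS, at 2.77, 2.25, 0.952 and 1.59 in Upy-PEG, and at 1.02, 2.02, 0.831 and 1.04 in antimiR-195. In each gene Upy-PEG replicate 3 lay below the highest PBS library and the other 3 lay above it. The log2 fold changes of Upy-PEG over PBS were 0.87 ± 0.276 for Col8a1 (SE; adjusted p = 0.171) and 1.37 ± 0.361 for Col8a2 (SE; adjusted p = 0.114).

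The fibril-associated chains of the FACIT class decorate the surface of type I fibrils. Col14a1 was at 29.3, 27.4, 38.8 and 41 CPM in PBS, at 72.7, 60.6, 34.4 and 51 in Upy-PEG, and at 29.3, 42.3, 31.7 and 35.5 in antimiR-195. Col16a1 was at 20.7, 15.5, 20.1 and 25 CPM in PBS, at 41.4, 40.9, 24.4 and 27.5 in Upy-PEG, and at 17.1, 35.5, 17 and 17.8 in antimiR-195. Upy-PEG replicate 3 again fell among the PBS libraries for both. Their log2 fold changes of Upy-PEG over PBS were 0.68 ± 0.206 (SE; adjusted p = 0.15) and 0.72 ± 0.252 (SE; adjusted p = 0.216). Col12a1, a chain of mechanically loaded tissue that was singled out after its values were seen, stood at 37.3, 16.4, 7.9 and 11.7 CPM in Upy-PEG against 3.55 to 10.2 in PBS. Upy-PEG replicate 1 was its highest library and replicate 3 lay in the PBS range. Col9a3, Col20a1 and Col22a1 had log2 fold changes between -0.25 and -0.11.

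Basement membrane type IV chains showed small differences. Col4a1 was at 470, 521, 502 and 393 CPM in PBS, at 816, 542, 443 and 445 in Upy-PEG, and at 416, 397, 320 and 557 in antimiR-195. Col4a2 was at 368, 417, 387 and 303 CPM in PBS, at 568, 391, 327 and 331 in Upy-PEG, and at 315, 265, 259 and 404 in antimiR-195. For Col4a2 only Upy-PEG replicate 1 lay above the PBS range. Log2 fold changes of Upy-PEG over PBS were 0.25 ± 0.205 for Col4a1 (SE; adjusted p = 0.678) and 0.13 ± 0.191 for Col4a2 (SE; adjusted p = 0.834), and the latter was -0.07 without Upy-PEG replicate 1. Col4a4, part of the type IV trimer best known from kidney, was at 3.39, 5.3, 5.5 and 4.62 CPM in PBS, at 5.47, 3.17, 2.62 and 2.77 in Upy-PEG, and at 3.39, 2.41, 1.37 and 5.38 in antimiR-195, with overlapping groups. The type IV class held 0 of 6 members at an unadjusted p under 0.05 in each of the 3 comparisons of 2 groups, where 13.2% (Upy-PEG against PBS), 13.1% (antimiR-195 against Upy-PEG) and 16.5% (antimiR-195 against PBS) of all genes lay under it in either direction, so that 0 of 6 is near the background.

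Col4a1 and Col4a2 are encoded head to head and assemble into 1 trimer, so their start regions are shown (RefSeq, GRCm38.p6, 300 bases across the start, most of them upstream, 5′ to 3′ on the strand of each gene). Capitals mark CCAAT boxes (CCAAT or ATTGG) and GC boxes (GGGCGG or CCGCCC).
Col4a1 promoter: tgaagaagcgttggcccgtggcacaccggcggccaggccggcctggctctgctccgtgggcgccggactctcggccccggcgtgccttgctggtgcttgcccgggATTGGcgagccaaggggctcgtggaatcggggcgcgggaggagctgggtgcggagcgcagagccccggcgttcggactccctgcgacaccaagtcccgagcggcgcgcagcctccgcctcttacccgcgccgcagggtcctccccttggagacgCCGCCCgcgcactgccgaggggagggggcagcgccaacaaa
Col4a2 promoter: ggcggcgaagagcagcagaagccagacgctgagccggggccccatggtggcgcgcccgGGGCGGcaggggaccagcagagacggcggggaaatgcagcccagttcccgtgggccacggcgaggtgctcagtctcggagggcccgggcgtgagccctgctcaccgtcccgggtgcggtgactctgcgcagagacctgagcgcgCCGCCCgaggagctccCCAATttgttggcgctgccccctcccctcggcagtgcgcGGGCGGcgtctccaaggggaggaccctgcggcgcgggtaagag
The Col4a1 window is chr8:11312777-11313076 on the minus strand and the Col4a2 window chr8:11312555-11312854 on the plus strand, so that they overlap. Of the 28 tested members with a promoter entry, 10 held a CCAAT box on either strand (35.7%), against 37.4% of 32851 promoters. A GC box stood in 19 (67.9%, against 35.7%), and TATAAA or its complement in 3 (10.7%, against 13.6%). Members were counted once per gene if any of their promoters matched. The background counts single promoters, whether or not the gene was tested. The 2 shares are therefore unlike measures, and no excess of a motif is read from them.

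The multiplexins lie where basement membranes meet the interstitial matrix. Col15a1 was at 99.3, 99, 138 and 104 CPM in PBS, at 249, 156, 104 and 119 in Upy-PEG, and at 99, 114, 82.5 and 143 in antimiR-195. Col18a1, the source of endostatin, was at 18, 18.1, 22.6 and 23.5 CPM in PBS, at 55, 33.1, 20.2 and 27.3 in Upy-PEG, and at 16.3, 23.5, 14.9 and 19.2 in antimiR-195. Upy-PEG replicate 1 was the highest library for both genes. Upy-PEG replicates 3 and 4 fell in the PBS range for Col15a1, and replicate 3 did for Col18a1. Log2 fold changes of Upy-PEG over PBS were 0.51 ± 0.245 for Col15a1 (SE; adjusted p = 0.398) and 0.72 ± 0.249 for Col18a1 (SE; adjusted p = 0.209).

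Type VI collagen was described by its Col6a1 and Col6a2 chains and by Col6a6. Col6a1 was at 107, 122, 126 and 123 CPM in PBS, at 182, 180, 133 and 128 in Upy-PEG, and at 111, 105, 92.7 and 142 in antimiR-195. Col6a2 was at 108, 117, 127 and 124 CPM in PBS, at 179, 172, 131 and 132 in Upy-PEG, and at 107, 120, 98.2 and 144 in antimiR-195. All 4 Upy-PEG libraries lay above all PBS libraries for both genes, with log2 fold changes of 0.38 ± 0.15 (SE; adjusted p = 0.275) and 0.37 ± 0.139 (SE; adjusted p = 0.256). Col6a6, an alternative chain of the type VI trimer, was at 4.85, 6.45, 6.74 and 5.22 CPM in PBS, at 5.03, 5.09, 4.48 and 4.95 in Upy-PEG, and at 3.9, 1.03, 1.52 and 5.84 in antimiR-195. The lowest values of Col6a6 were antimiR-195 replicates 2 and 3, the libraries with the weak dependence on gene length. Replicate 1 of that group, at 3.9 CPM, also lay below every PBS and every Upy-PEG library.

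The remaining classes were rare and showed no unadjusted p under 0.05 in the comparison with saline. Col7a1, the anchoring fibril chain, was at 1.63, 1.91, 1.83 and 0.916 CPM in PBS, at 3.23, 2.21, 1.55 and 1.63 in Upy-PEG, and at 0.835, 2.41, 1.61 and 2.24 in antimiR-195. The transmembrane collagen Col23a1 was at 1.99, 2.5, 2.54 and 2.87 CPM in PBS, at 2.21, 1.98, 2.5 and 2.55 in Upy-PEG, and at 1.76, 1.59, 2.69 and 2.28 in antimiR-195. Col13a1, of the same class, was at 1.11, 0.848, 0.666 and 0.637 CPM in PBS, at 0.653, 0.859, 0.436 and 0.591 in Upy-PEG, and at 0.278, 0.732, 1.12 and 0.658 in antimiR-195. The groups overlapped for all 3 genes, and log2 fold changes of Upy-PEG over PBS were 0.46 ± 0.339, -0.10 ± 0.199 and -0.36 ± 0.36 (SE). Col28a1 was at 0.717, 0.891, 1.75 and 1.08 CPM in PBS, at 0.901, 1.32, 0.317 and 1.29 in Upy-PEG, and at 0.696, 0.732, 0.978 and 0.89 in antimiR-195. Col26a1 was at 0.456, 0.212, 0.541 and 0.677 CPM in PBS, at 0.59, 0.562, 0.556 and 0.554 in Upy-PEG, and at 0.51, 0.775, 0.635 and 0.658 in antimiR-195. Both overlapped between groups, with log2 fold changes of -0.19 ± 0.38 and 0.26 ± 0.314 (SE).

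**Figure D4:**
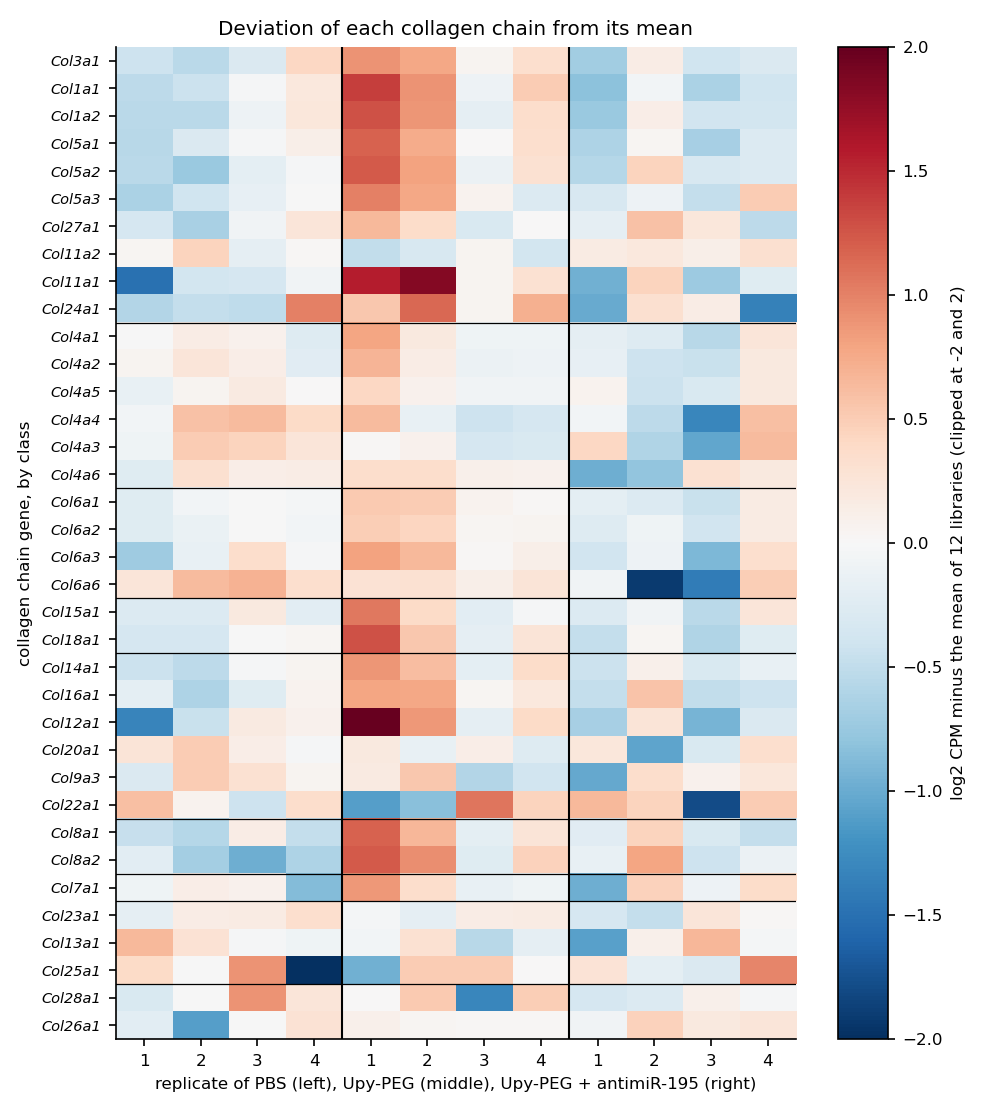
Colours give the log2 CPM of each tested collagen chain (rows, by class) in each library (columns) minus its mean over 12 libraries. Red cells concentrate in Upy-PEG replicates 1 and 2, where fibrillar chains average 0.92 and 0.79 above their mean, while Upy-PEG replicate 3 averages -0.04.

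The antimiR-195 hydrogel was then compared with the hydrogel alone, a contrast of groups that differ by the oligonucleotide load. Without a control oligonucleotide, action on miR-195 and action of any oligonucleotide cannot be told apart. Here too 0 genes passed an adjusted p of 0.05 in edgeR's quasi-likelihood test (0.0% called), and the lowest adjusted p over all genes was 0.364. At an unadjusted p under 0.05, 15 of 36 members were lower (41.7%, against 6.4% of genes) and 1 was higher (2.78%, against 6.67%). The median log2 fold change was -0.47, a fold of 0.724, against -0.01 for all genes, and 30 of 36 members lay below 0, against 50.8% of genes, with 6 above 0, against 49.2%. DESeq2 called 13 genes with 1 member, Col1a1, while limma voom and limma-trend called 0 of each. The comparison rests on the same Upy-PEG libraries as the one with saline, so the 2 are not independent.

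The classes stood in a similar order, with median log2 fold changes of -0.91 for fibrillar, -0.7 for multiplexin, -0.64 for short-chain, -0.55 for type VI, -0.36 for FACIT and -0.29 for type IV chains. Col1a1 had the lowest p, with a log2 fold change of -1.23 ± 0.277 (SE; unadjusted p = 0.000616, adjusted p = 0.364). Its antimiR-195 value in replicate 2 (950 CPM) exceeded Upy-PEG replicate 3 (919 CPM), so the groups overlapped. Col5a1 followed at -0.98 ± 0.239 and Col18a1 at -0.88 ± 0.25 (SE; adjusted p = 0.364 for both). Col3a1 stood at -0.83 ± 0.245, Col11a1 at -1.46 ± 0.456, Col14a1 at -0.66 ± 0.206 and Col6a1 at -0.47 ± 0.15 (SE). Col8a2 stood at -0.62 ± 0.348, Col4a1 at -0.41 ± 0.205 and Col4a2 at -0.38 ± 0.191 (SE), all 3 with an unadjusted p above 0.05. No member had all antimiR-195 libraries below all Upy-PEG libraries (0 of 36, against 2.46% of genes).

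Without Upy-PEG replicate 1 the count of members lower at an unadjusted p under 0.05 was 9 in place of 15, and it was 20 without Upy-PEG replicate 3. The share of all genes lower by that rule was 2.79% and 9.06% in the same fits, against 6.4% with all libraries. In Upy-PEG against PBS the count of members higher was 10 without Upy-PEG replicate 1 and 17 without replicate 3, in place of 15. The share of all genes higher was 6.17% and 11% in those fits, against 9.33%. The median log2 fold change without replicate 1 was -0.31 against hydrogel and 0.26 against saline. Without antimiR-195 replicates 2 and 3 together the antimiR-195 comparison gave 13 members lower, where 6.61% of all genes were, and a median of -0.39.

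The exception among fibrillar chains was Col11a2, chosen after its values were seen, a type XI chain that was at 2.18, 2.48, 3.21 and 2.4 CPM in Upy-PEG and at 3.48, 3.61, 3.37 and 3.91 in antimiR-195. Its groups did not overlap, as for 1.94% of all genes in that direction. The log2 fold change was 0.49 ± 0.178 (SE; adjusted p = 0.364), and its PBS libraries lay between 2.75 and 4.24 CPM.

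Members with a miR-195 match had a median log2 fold change of -0.16 (9 genes, -1.37 to 0.24) between antimiR-195 and hydrogel alone, and members without one had -0.47 (27 genes, -1.46 to 0.49). Of the members with a match, 6 lay below 0 and 3 above. Members with a miR-29 match had a median of -0.47 (23 genes) and those without one also -0.47 (13 genes). Between Upy-PEG and PBS the medians were 0.46 with and -0.1 without a miR-29 match, and -0.03 with and 0.39 without a miR-195 match. Both comparisons share the Upy-PEG libraries. These medians are descriptions of gene groups of unequal expression and carry no test, and neither microRNA was measured in these libraries of polyadenylated RNA.

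**Figure D5:**
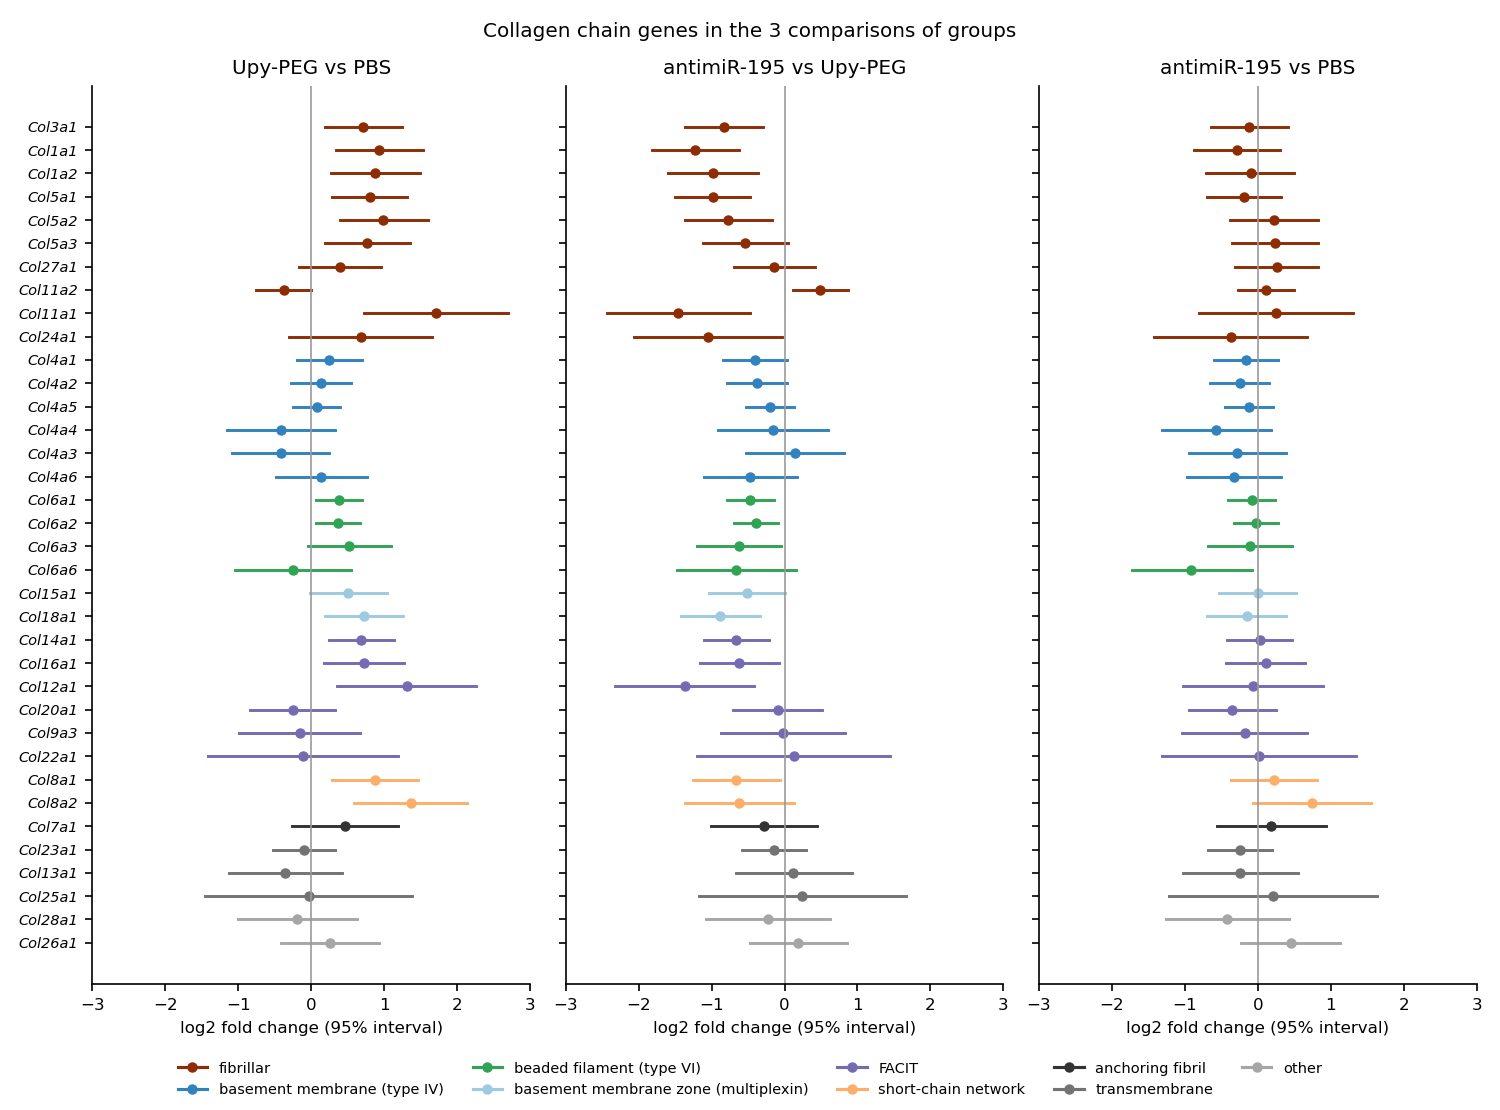
Points give the log2 fold change of each tested collagen chain in 3 comparisons and lines its 95% interval from edgeR, coloured by class. Fibrillar chains lie mostly right of 0 for Upy-PEG against PBS (Col11a2 at -0.38) and mostly left of 0 for antimiR-195 against Upy-PEG, and in antimiR-195 against PBS the interval covers 0 for every member except Col6a6.

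Between antimiR-195 hydrogel and saline the members showed little difference. In edgeR's quasi-likelihood test 0 genes passed an adjusted p of 0.05 (0.0% called), whereas limma voom called 1 gene and DESeq2 95, none of them a member. At an unadjusted p under 0.05, 0 members were higher (against 8.65% of genes) and 1 was lower (2.78%, against 7.89%). The median log2 fold change was -0.11, against 0.01 for all genes, with 13 members above 0 (50.8% of genes) and 23 below 0 (49.2% of genes). The 2 groups overlapped for every tested member, while 2.74% of all genes lay wholly higher and 3.32% wholly lower. Col1a1 stood at -0.29 ± 0.274, Col3a1 at -0.12 ± 0.244 and Col5a2 at 0.22 ± 0.279 (SE), with 95% intervals of -0.88 to 0.30, -0.64 to 0.41 and -0.38 to 0.82. Col8a2 stood at 0.74 ± 0.374 and Col4a4 at -0.57 ± 0.349 (SE; adjusted p = 0.319 and 0.386). The member with an unadjusted p under 0.05 was Col6a6, at -0.91 ± 0.383 (SE; adjusted p = 0.283). Its value was -0.24 without antimiR-195 replicates 2 and 3, -0.62 without replicate 2 alone, -1.44 without replicate 4 alone, and -0.44 with the length slope as a covariate.

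With both hydrogel groups set against PBS, 4 of 36 members were higher at an unadjusted p under 0.05 (Col11a1, Col5a2, Col8a1 and Col8a2). That is 11.1%, near the 8.67% of all genes, and 0 were lower, against 6.57%. No gene passed an adjusted p of 0.05 in edgeR's quasi-likelihood test (0.0% called), while limma voom called 4 genes and DESeq2 367, again without a member. The median was 0.19, against -0.00 for all genes, with 23 members above 0 (49.2% of genes) and 13 below 0 (50.8%). No member lay wholly above or below PBS in all 8 hydrogel libraries, against 1.04% and 1.22% of genes. Col8a2 had the lowest p, with a log2 fold change of 1.05 ± 0.328 (SE; adjusted p = 0.193), followed by Col5a2 at 0.61 ± 0.247 and Col11a1 at 0.98 ± 0.422 (SE). The count of 4 was 1 without PBS replicate 1 or PBS replicate 2, 2 without Upy-PEG replicate 1, Upy-PEG replicate 2 or antimiR-195 replicate 2, and 8 without Upy-PEG replicate 3.

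Ratios between chains within a library do not depend on library scaling, and 18 such comparisons were tested with 2-sided exact permutation tests, whose smallest possible p is 0.0286. None had an adjusted p under 0.05. Comparisons at that smallest p had an adjusted p of 0.171. The adjusted threshold could be passed only if many of the 18 reached the smallest p together, so little is read from its not being passed. The ratio of Col1a1 to Col1a2 per kilobase was 2.49, 2.67, 2.62 and 2.43 in PBS, 2.68, 2.5, 2.6 and 2.77 in Upy-PEG, and 2.33, 2.15, 2.07 and 2.43 in antimiR-195. The antimiR-195 libraries lay at or below the lowest of the others, with log2 differences of -0.24 from Upy-PEG and -0.19 from PBS (exact p = 0.0286 and adjusted p = 0.171 for both). The lowest ratios were those of replicates 2 and 3. Without them the log2 differences were -0.15 and -0.10 (exact p = 0.0667 and 0.133), in a design whose smallest possible p is 0.0667. The deposited length of Col1a2 sets the absolute ratio, which averaged 2.48 with it and 1.21 with the longest coding transcripts.

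The ratio of Col4a1 to Col4a2, the paired basement membrane chains, was 1.24 ± 0.0209 in PBS, 1.34 ± 0.0399 in Upy-PEG and 1.32 ± 0.108 in antimiR-195 (SD, n = 4 each). Upy-PEG libraries lay between 1.31 and 1.39 and PBS libraries between 1.21 and 1.26, a log2 difference of 0.11 (exact p = 0.0286, adjusted p = 0.171). The ratio of Col3a1 to Col1a1 was 1.1 ± 0.163 in PBS, 1.0 ± 0.183 in Upy-PEG and 1.25 ± 0.0538 in antimiR-195, with an exact p of 0.0857 between the hydrogel groups. The ratio of Col5a1 to Col5a2 was 1.82 ± 0.261 in PBS, 1.6 ± 0.103 in Upy-PEG and 1.39 ± 0.198 in antimiR-195 (SD, n = 4 each). Its log2 difference of -0.39 between antimiR-195 and PBS had an exact p of 0.0571 (adjusted p = 0.257). Col6a1 to Col6a2 stayed between 1.66 and 1.99 in all libraries, and Col6a3 to Col6a1 between 0.139 and 0.248. The absolute size of these ratios also depends on the length used. With the longest coding transcripts Col6a1 to Col6a2 averaged 1.13 in place of 1.89, and Col5a1 to Col5a2 1.12 in place of 1.6. Col3a1 to Col1a1 averaged 1.52 in place of 1.12, while Col4a1 to Col4a2 (1.31 and 1.3) and Col6a3 to Col6a1 (0.217 and 0.196) moved less.

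Genes that handle collagen chains after transcription were counted from lists. Enzymes and chaperones of the endoplasmic reticulum, which hydroxylate and fold the chains, held 10 of 20 tested genes higher at an unadjusted p under 0.05 in Upy-PEG against PBS and 7 lower in antimiR-195 against Upy-PEG (medians 0.31 and -0.21). The shares of all genes were 9.33% higher in the first comparison and 6.4% lower in the second, and they are the background for all these lists. The collagen chaperone Serpinh1 was at 318 ± 23.1 CPM in PBS, 458 ± 118 in Upy-PEG and 366 ± 80.4 in antimiR-195, and the prolyl hydroxylase subunit P4ha3 at 1.6 ± 0.632, 4.72 ± 2.11 and 1.91 ± 1.11 (SD, n = 4 each). Propeptide removal and crosslinking held 7 of 13 higher in the first comparison and 9 lower in the second (medians 0.45 and -0.61). The crosslinking enzyme Lox had a log2 fold change of 1.42 ± 0.378 in Upy-PEG against PBS (SE; adjusted p = 0.115), and the propeptidase Adamts2 was at 45.5 ± 6.94, 69.3 ± 18.9 and 45.3 ± 7.34 CPM in the same order of groups (SD). In Upy-PEG against PBS Plod1, P3h4 and Mia3 of the first list and Adamts3 and Pcolce2 of the second had log2 fold changes below 0 (-0.23 to -0.08). None of the genes in these lists had an adjusted p under 0.05 in edgeR's quasi-likelihood test.

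Non-collagen fibril partners held 8 of 12 genes higher and 1 lower (Tnxb, a tenascin, at a log2 fold change of -0.43 ± 0.138, SE) in Upy-PEG against PBS, and 4 lower in antimiR-195 against Upy-PEG. Fibronectin (Fn1) was at 198 ± 63.8 CPM in PBS, 386 ± 226 in Upy-PEG and 176 ± 55.2 in antimiR-195. Among collagen breakdown genes 3 of 9 were higher in Upy-PEG against PBS and 4 lower in antimiR-195 against Upy-PEG, with the membrane collagenase Mmp14 at 31.9 ± 7.23, 75.5 ± 30.4 and 48.4 ± 15 CPM (SD). In the same 2 comparisons, collagen receptors held 2 of 7 higher in the first and 3 lower in the second. Transcription and TGF-beta regulators held 7 of 12 higher in the first and 3 lower in the second, with Tgfb3 at 22.9 ± 1.35, 34.8 ± 12.1 and 25 ± 2.95 CPM and Meox1, a homeobox factor of activated fibroblasts, at 13 ± 2.49, 28.1 ± 9.89 and 26.3 ± 10.4 CPM (SD). Sp1, Smad3, Smad7, Tcf21 and Mrtfa were not among the 7, with log2 fold changes between -0.09 and 0.29 in the first comparison.

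Cell type markers are given beside the collagen chains as counts at an unadjusted p under 0.05 in Upy-PEG against PBS, where 9.33% of all genes were higher and 3.83% lower. No marker had an adjusted p under 0.05 in edgeR's quasi-likelihood test. In a bulk library fewer cells of a type and less RNA per cell cannot be told apart. Myofibroblast markers summed to 361 to 419 CPM in PBS, 516 to 1378 in Upy-PEG and 429 to 957 in antimiR-195, with 6 of 10 higher. Postn, also listed as a fibril partner, was the largest part of the Upy-PEG sum, at 136 ± 16.6, 429 ± 212 and 256 ± 141 CPM (SD). The 6 did not include Fap, Comp or the contractile genes Acta2 and Tagln (log2 fold changes 0.37 ± 0.282 and 0.57 ± 0.312, SE). The sums of general fibroblast markers overlapped, at 1876 to 2229, 1671 to 2193 and 1905 to 2318 CPM, with 4 of 10 higher and 1 lower. Gsn, the 1 lower, was the largest part of these sums, at 1190 ± 99.6, 966 ± 153 and 1113 ± 89.1 CPM (SD). By direction alone, 8 of the 10 lay above 0 in Upy-PEG against PBS, against 44.7% of genes. Macrophage markers summed to 619 to 941, 1188 to 1734 and 813 to 1642 CPM, with 9 of 10 higher, and cycling markers to 21.5 to 45.6, 55 to 118 and 29.8 to 51.9 CPM, with 6 of 6 higher. Cardiomyocyte markers gave 0 of 10 higher and 1 lower, endothelial markers 0 and 2 of 10, and pericyte and smooth muscle markers 0 and 2 of 10. Schwann cell (5 of 6 tested) and epicardial markers (5 of 6) had 0 in either direction, chondrocyte markers (3 of 6 tested) 1 higher, and adipocyte markers (2 of 6 tested) 2 lower. No marker was at 0 in all libraries, and the part of these cell types in the collagen values was not tested.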

How the data were processed

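Messenger RNA of mouse left ventricle was sequenced in 12 stranded polyA libraries, per the labels' protocols. The authors deposited read counts per gene and RPKM values. STAR, HTSeq, DESeq and the build GRCm38 are named in the submitters' processing notes; versions, annotation and strand setting were not given in the sources used here, so reads of overlapping genes cannot be assigned with certainty. Reads on no feature were 6.25% to 8.77% and were left out. Counts were fitted with edgeR 4.0.16 (R 4.3.3), TMM scaling and 3 group means over 12 libraries, which left 9 residual degrees of freedom. The quasi-likelihood p-values of the 14770 genes were adjusted by the Benjamini-Hochberg method. A prior count of 2 entered the log2 CPM values, not the fitted fold changes. The script was tested on simulated data. CPM values are TMM-scaled, and log2 fold changes and 95% intervals were computed from the deposited counts. Gene lengths were derived from the deposited counts and RPKM. Alternatives were RLE scaling, no filter, a gene-length covariate, only the groups compared, leaving out libraries, limma 3.58.1 (voom with sample weights, and limma-trend on log2 of the deposited RPKM + 0.1) and DESeq2 1.42.0. Values by library are given for the 2 members of each class with the highest RPKM, members past an adjusted p of 0.05 and the 3 members with the lowest p in each comparison; others named were chosen after their values were seen. The members and gene lists were chosen with earlier results of these data known. Depth of 22353241 to 30278621 counts limits the precision of members below 1 CPM.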

Additional observations from a re-analysis of the deposited data

Results flagged for a closer look

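Of 129 sets of 4 libraries (each tested member, each chain ratio and the collagen share of counts, in each group), 6 held a library far from the other 3 by Dixon's gap test, and chance flags about 5% of such sets. Col24a1, a minor fibrillar chain, was at 1.91 CPM in PBS replicate 4 and at 0.586 to 0.636 in the other 3. Both Col15a1 and Col8a1 were high in PBS replicate 3, at 138 CPM against 99.0 to 104 and at 57.5 CPM against 34.7 to 37.4. Col16a1 was at 35.5 CPM in antimiR-195 replicate 2 and at 17 to 17.8 in the others of that group. Col22a1, a FACIT chain of tissue junctions, was at 0.0489 CPM in antimiR-195 replicate 3 against 0.516 to 0.603. The ratio of Col6a1 to Col6a2 was 1.98 in PBS replicate 2 against 1.88 to 1.89.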

How the results depend on the processing

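No paired analysis was possible because the labels give no replicate numbers; those used here follow accession order. Of 1257 recomputed log2 fold changes of members, 1197 kept their direction and their side of the threshold, 9 kept their direction and passed it, and 51 changed sign; the cause was not tested. Genes past an adjusted p of 0.05 in Upy-PEG against PBS numbered 69 with no filter, 332 with the length covariate, 172 with only the groups compared, 349 without antimiR-195 replicates 2 and 3, 918 with voom and 505 with DESeq2, and 0 to 46 with 1 library left out. In antimiR-195 against Upy-PEG DESeq2 gave 13. In antimiR-195 against PBS no filter gave 1, voom 1 and DESeq2 95, and for both hydrogel groups against PBS they gave 6, 4 and 367. Members past that threshold in Upy-PEG against PBS numbered 1 without antimiR-195 replicates 2 and 3, 4 with voom and 5 with DESeq2, and 1 in antimiR-195 against Upy-PEG with DESeq2. Both hydrogel groups against PBS could not be refitted with only the groups compared, since that is the whole set.

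Members at an unadjusted p under 0.05 in antimiR-195 against PBS (lower) numbered 0 with the length covariate, 0 with only the groups compared and 2 with voom, and 0 to 2 with 1 library left out. For both hydrogel groups against PBS (higher) they numbered 7 with the length covariate, 2 without antimiR-195 replicates 2 and 3, 1 with voom, 2 with limma-trend, and 1 to 8 with 1 library left out. In antimiR-195 against Upy-PEG (lower) the range was 9 to 20. Chain ratios with an unadjusted exact permutation p under 0.05 numbered 0 without antimiR-195 replicates 2 and 3 in both comparisons with that group. That count could not be otherwise, since the smallest possible p of that design is 0.0667, and nothing is read from it. With 1 library left out, such ratios numbered 0 to 1 in both comparisons. Without mitochondrially encoded genes the collagen share of counts was 0.545% in PBS, 0.948% in Upy-PEG and 0.485% in antimiR-195.

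Some log2 fold changes changed sign, among them that of Col13a1 in antimiR-195 against Upy-PEG, which was 0.12 in the main fit. Limma-trend moved the median of all genes by -0.16 in antimiR-195 against Upy-PEG. Col23a1 in Upy-PEG against PBS was 0.00 with limma-trend. Col13a1 in antimiR-195 against Upy-PEG was -0.12 with the length covariate, -0.41 without replicates 2 and 3, -0.41 with voom and -0.05 with limma-trend. In antimiR-195 against PBS the length covariate gave 0.11 for Col4a1, 0.03 for Col4a2, 0.27 for Col15a1, -0.13 for Col16a1, 0.11 for Col6a1 and 0.11 for Col6a2. Without replicates 2 and 3 the same comparison gave 0.05 for Col4a1, 0.14 for Col15a1, -0.07 for Col14a1, -0.21 for Col16a1, 0.09 for Col6a1, 0.08 for Col6a2 and -0.03 for Col8a1. Voom gave -0.14 for Col14a1, -0.14 for Col16a1 and -0.10 for Col7a1, and limma-trend -0.02 for Col14a1 and -0.00 for Col16a1. For both hydrogel groups against PBS, Col4a2 was 0.10 with the length covariate and 0.05 without replicates 2 and 3, and Col4a1 was -0.01 with voom. Without replicates 2 and 3 the log2 ratio difference of Col6a1 to Col6a2 was 0.004 against Upy-PEG and 0.014 against PBS, and that of Col6a3 to Col6a1 was 0.04 against PBS.

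With 1 library left out, values in antimiR-195 against PBS ranged from -0.55 to 0.01 for Col13a1, -0.08 to 0.13 for Col14a1, -0.16 to 0.12 for Col15a1, -0.23 to 0.22 for Col16a1, -0.30 to 0.14 for Col3a1, -0.13 to 0.05 for Col6a2, -0.00 to 0.41 for Col7a1 and -0.02 to 0.41 for Col8a1. In antimiR-195 against Upy-PEG Col13a1 ranged from -0.20 to 0.36. In Upy-PEG against PBS Col28a1 ranged from -0.38 to 0.11 and Col4a2 from -0.07 to 0.24. For both hydrogel groups against PBS the ranges were -0.47 to 0.00 for Col28a1, -0.07 to 0.11 for Col4a1 and -0.16 to 0.01 for Col4a2. Ratio differences ranged from -0.075 to 0.018 for Col4a1 to Col4a2 in antimiR-195 against Upy-PEG, -0.008 to 0.029 for Col6a1 to Col6a2 in Upy-PEG against PBS, and -0.171 to 0.105 for Col6a3 to Col6a1 in antimiR-195 against PBS.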
